A study of Mus musculus with 85 samples.

Results

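The zinc finger genes described here are those whose mouse symbol runs in number from Zfp600 to Zfp999. Of 144 such genes in the tables, 127 had a mean of at least 10 normalized reads in each of the 3 tables of sorted neural cells and are called the members, and 17 did not. The threshold used only that mean over knockout and control libraries together. Just inside it stood Zfp879, Zfp947 and Zfp953, with lowest table means of 13.6, 14.04 and 16.03, and just outside it Zfp960, Zfp791 and Zfp853, with 9.50, 8.56 and 5.99. The range of numbers marks no protein class.

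The libraries came from mouse embryonic brain at E14.5 and from cultured pericytes. Whole brains carried a Mof nKO, a label of Kansl2 nKO or a label of Kansl3 nKO, with Cre controls (3 libraries each). Sorted neural cells had the same 4 genotypes with 3 libraries each. Sorted pericytes, the cells that wrap brain capillaries, had 3 Mof nKO, 3 Kansl2 nKO, 4 Kansl3 nKO and 4 Cre control libraries. All knockouts were made with Nestin Cre, which acts in neural progenitors and their descendants, and the controls carried Cre as well. Primary pericytes of adult wild-type brain were kept in culture with BSA-conjugated fatty acids of chain length C14:0 and C16:0 (200 µM each), C20:0 (20 µM) and C24:0 (10 µM), against ethanol with BSA (3 libraries each). Nothing in the labels beyond the sample names says that libraries of a group came from separate animals or cultures, so the p-values cover the spread between libraries alone, which may be technical.

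Most proteins of this family bind DNA through arrays of zinc fingers, and many carry a KRAB domain. KRAB zinc finger proteins recruit TRIM28, which brings the histone methyltransferase SETDB1, HP1 proteins and histone deacetylases to transposons and other targets. Their genes lie in clusters that arose by repeated duplication, and sequencing reads from close copies can be hard to assign. MOF, encoded by Kat8, is the histone H4 acetyltransferase of the NSL complex, which sits at the promoters of widely expressed genes, and KANSL2 and KANSL3 are subunits of that complex.

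Depth was 8444551 to 12641817 reads per library for whole brain, 5687012 to 12665665 for neural cells, 1572515 to 5852542 for sorted pericytes and 42623429 to 51854152 for culture. Kat8 was lower than in Cre controls in each whole-brain and each neural comparison (6 in all), by 0.57 ± 0.11 (SE) to 1.42 ± 0.12 on the log2 scale, and passed in none of the 3 of sorted pericytes. Kansl2 was not reduced under its own label (0.46 ± 0.10 in brains and 0.09 ± 0.09 in sorted neural cells), nor was Kansl3 under its own (0.28 ± 0.11 and 0.28 ± 0.07). Both groups are therefore called "labelled", and each direction given for them rests on the label. The gene total does not show whether part of a transcript was deleted. Summed markers of neural progenitors and of neurons were present in neural cells, where 8 microglia markers together held at most 9.3e-05% of reads in any library. Here "rose" and "fell" are used for genes with an adjusted p under 0.05 in a model fitted to all genes of a table, by limma in sorted cells and edgeR in whole brain and culture.

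In sorted neural cells many members were lower in each knockout than in Cre controls. With Mof nKO 43 of 127 members fell and 12 rose (limma, n = 3 per group), where 17.1% of all 13724 genes tested fell and 19.4% rose. With the labelled Kansl2 nKO 58 fell and 9 rose, against 22.1% and 20.1% of 13903 genes. With the labelled Kansl3 nKO 76 fell and 10 rose, against 28.8% and 26.4% of 14534 genes. The median log2 difference of the members was -0.16, -0.29 and -0.47 in these 3 comparisons, where that of all genes was between -0.004 and 0.009. The 3 comparisons share the same 3 Cre libraries. Of 179 genes numbered Zfp1 to Zfp599 with the same mean, 43 fell and 25 rose with Mof, 68 fell and 20 rose with Kansl2, and 102 fell and 19 rose with Kansl3, so falls outnumbered rises in the lower numbers as well. The count of rises leaned on single libraries. For Mof it was 5 without Cre_184, 6 without Cre_188 and 7 without Mof_646, and for Kansl2 it was 5 without Cre_184 and 4 without Cre_188. The normalized reads summed over all members were 46660 to 48790 in labelled Kansl3 nKO against 53000 to 54460 in Cre controls, with no overlap, and 40340 to 41760 in Mof nKO against 40610 to 41470 in Cre controls, which overlapped. Erythroid markers moved with the Kansl3 label: their 6 genes held 0.1% to 0.201% of reads against 0.044% to 0.0638% in Cre controls, and their part in these counts was not tested. So did the 8 neural progenitor markers (0.169% to 0.203% against 0.114% to 0.14%), the 8 neuron markers (0.419% to 0.451% against 0.369% to 0.412%) and the 8 pericyte markers (0.00927% to 0.0101% against 0.00475% to 0.00722%). The ribosomal RNA gene Rn18s-rs5 took 10.7% to 12.3% of reads in labelled Kansl3 nKO against 15.4% to 28.7% in Cre controls, and mitochondrial genes took 0.312% to 0.335% against 0.427% to 0.436%. Marker shares are of all reads, Rn18s-rs5 included, so its lower share with the Kansl3 label raises them by itself. The marker shares therefore do not show by how much the cell types differed. The part of these shares in the counts was not tested either.

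**Figure D1:**
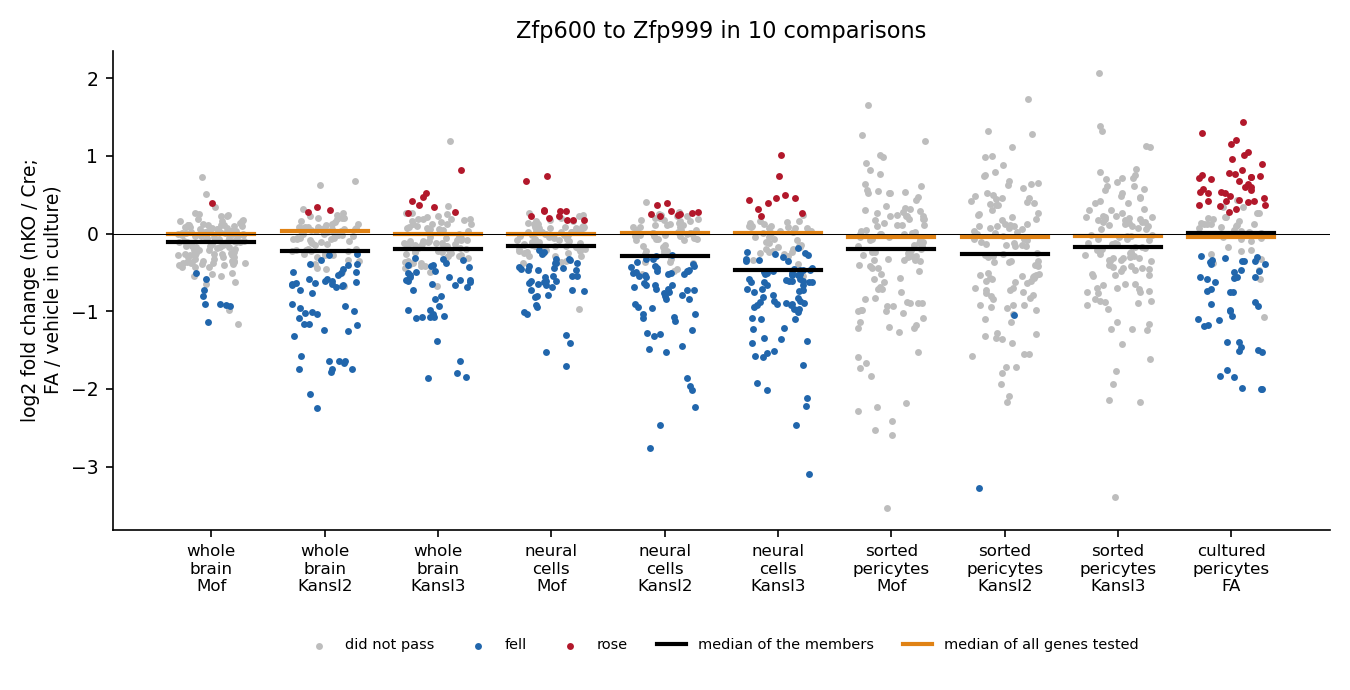
Log2 difference of every member tested (points) in each of 10 comparisons against Cre or vehicle, with members that fell in blue, members that rose in red and others in grey. Black bars mark the median of the members and orange bars that of all genes tested, and the black bar lies lowest in neural cells labelled Kansl3 nKO, at -0.47.

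Some members with few reads were far lower in the knockouts. Zfp677, Zfp879, Zfp947 and Zfp953 averaged under 10 normalized reads in both labelled Kansl groups, and Zfp947 also with Mof, so in those tables they met the minimum mean of 10 through the Cre libraries alone. A difference was built in there, and their values in those tables are a description. Without them 42 of 126 members fell with Mof, 54 of 123 with Kansl2 and 72 of 123 with Kansl3. Zfp677 is a chromosome 17 gene to which no single function is assigned here. It had 1.79, 4.41 and 4.03 normalized reads in neural cells labelled Kansl3 nKO, against 30.6, 42.9 and 33.3 in Cre controls. Every knockout library lay far below every control library, and the log2 difference was -3.10 ± 0.38 (± SE, limma on log2(value + 1), which understates folds of low genes). In the labelled Kansl2 nKO it had 7.19, 3.99 and 8.70 against 24.9, 34.8 and 27.0 (-2.01 ± 0.35). In Mof nKO it had 11.4, 14.6 and 12.8 against 23.4, 32.7 and 25.4 (-1.01 ± 0.29, limma, adjusted p = 0.0109), again without overlap, and this call was lost without Cre_184 (-0.87) and with DESeq2 on recovered reads (-1.07).

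Zfp953, Zfp947 and Zfp820 were also low in the knockouts. The values of Zfp953 with the Kansl2 label and of Zfp947 with Mof are among those with a difference built in, and are a description. Zfp953 had 2.40, 1.997 and 6.22 normalized reads in neural cells labelled Kansl2 nKO against 27.8, 18.96 and 38.8 in Cre controls (-2.76 ± 0.42). With Mof its 3 libraries read 4.55, 5.83 and 20.3 against 26.2, 17.8 and 36.5, and 1 Mof library lay above the lowest control (-1.52 ± 0.43, adjusted p = 0.0104). Zfp947 had 10.2, 10.2 and 4.27 with Mof against 18.6, 19.8 and 29.3 in Cre controls (-1.41 ± 0.38). Zfp820 had 17.1, 18.96 and 10.7 with Mof against 45.5, 54.5 and 55.5 (-1.70 ± 0.26, adjusted p = 7.85e-05). For Zfp947 and Zfp820 the Mof and control libraries did not overlap. Among members without overlap Zfp820 had the largest fall under Mof. Under Mof the call for Zfp953 was lost without Cre_188 (-1.28) or Mof_643 (-1.15).

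Members with more reads fell as well. Zfp950 averaged 94.5 ± 5.29 normalized reads in labelled Kansl3 nKO and 306.6 ± 11.8 in Cre controls (mean ± SD, n = 3 each), a log2 difference of -1.69 ± 0.11 (limma, adjusted p = 6.17e-08). Zfp772 averaged 34.5 ± 2.03 in labelled Kansl3 nKO and 142.7 ± 16.6 in Cre controls (-2.01 ± 0.16, limma, adjusted p = 3.18e-07). With Mof its libraries read 62.6, 43.8 and 29.9 against 123, 98.1 and 106 (-1.30 ± 0.21, adjusted p = 0.000143). Both genes were lower in each knockout library than in each control library.

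**Figure D2:**
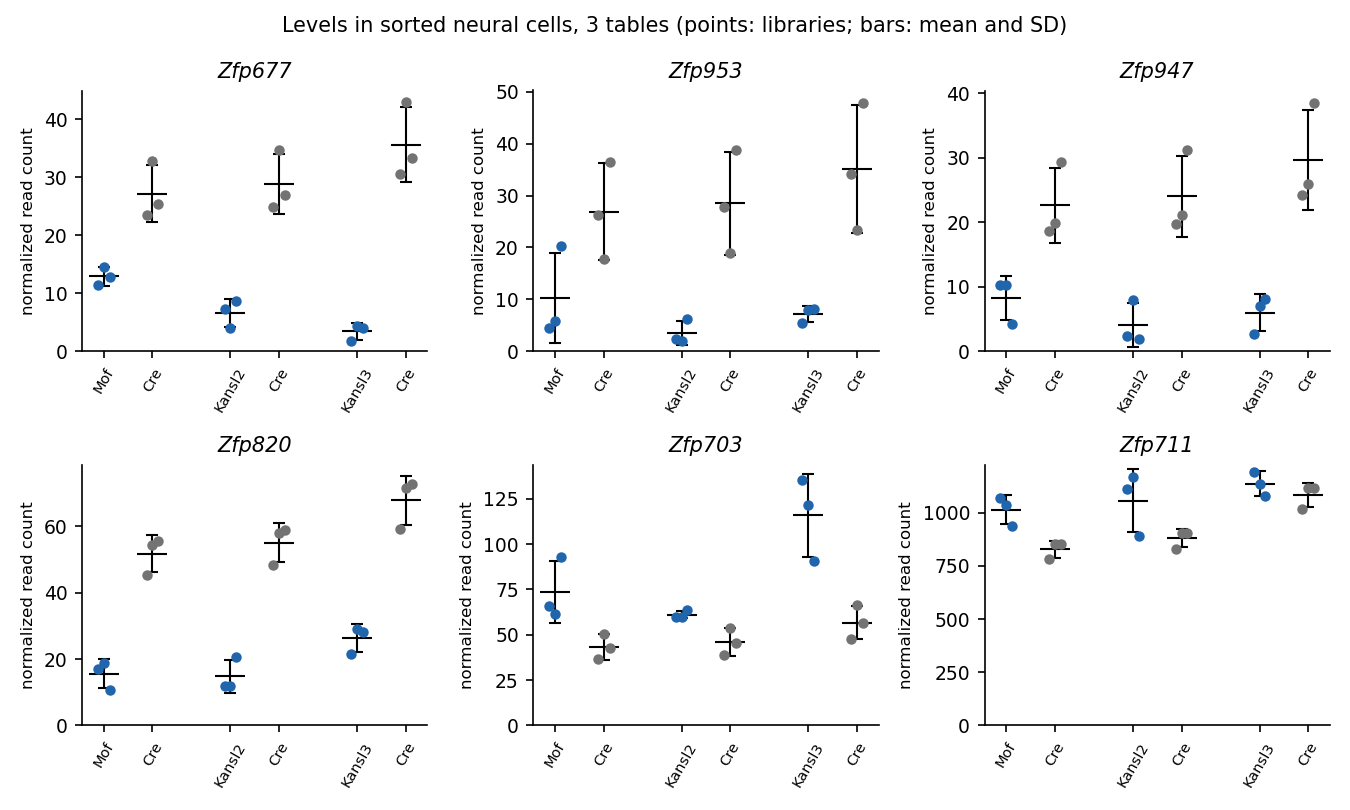
Normalized reads of 6 members in each neural library (points, with mean ± SD), 3 knockout libraries to the left of 3 Cre libraries in each of the 3 tables. Zfp677, Zfp953, Zfp947 and Zfp820 are low in the knockouts (Zfp953 overlaps with Mof), and Zfp703 is high in Mof and labelled Kansl3 nKO.

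A smaller set of members rose in neural cells, several of them genes with a role known from the literature. Which members carry a KRAB domain was not examined. Zfp703 encodes a co-repressor studied as a breast cancer oncogene in human. It had 135, 122 and 90.8 normalized reads in labelled Kansl3 nKO against 47.7, 66.3 and 56.2 in Cre controls (1.01 ± 0.18, adjusted p = 0.000294). With Mof it had 66.0, 61.3 and 92.9 against 36.5, 50.6 and 42.8 (0.74 ± 0.20, adjusted p = 0.0076). Neither comparison had overlapping groups. In the labelled Kansl2 nKO its log2 difference was 0.41 ± 0.19 and did not pass (limma, adjusted p = 0.0918).

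Zfp609 works with the cohesin loader NIPBL in mouse cortical neurons. It had 1058, 899 and 631 normalized reads in labelled Kansl3 nKO against 557, 499 and 463 in Cre controls (0.74 ± 0.14, adjusted p = 0.000398), and with Mof its groups overlapped (0.17 ± 0.12, adjusted p = 0.27). Zfp711, whose human counterpart on the X chromosome is mutated in intellectual disability and binds the demethylase PHF8, had 1070, 1037 and 938 with Mof against 781, 852 and 851 (0.29 ± 0.07, adjusted p = 0.00265). Zfp618, Zfp644, Zfp704, Zfp771, Zfp811, Zfp821, Zfp827, Zfp869 and Zfp871 each rose in at least 1 of the 3 comparisons. Zfp618, a partner of UHRF2 in human cells, rose by 0.39 ± 0.09 with Kansl2 and 0.45 ± 0.08 with Kansl3, and Zfp771 rose by 0.67 ± 0.12 with Mof and stood at 0.20 ± 0.14 and 0.01 ± 0.13 with Kansl2 and Kansl3.

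In whole brain the members were again lower than Cre controls, and the count depended on the knockout. With the labelled Kansl2 nKO 51 of 127 fell and 3 rose (edgeR, n = 3 per group), where 16.2% of all 16290 genes fell and 10.4% rose. With the labelled Kansl3 nKO 39 fell and 8 rose, against 18.8% and 15.2%. With Mof 9 fell and 1 rose, against 4.04% and 1.93%, and 37 members had an unadjusted p under 0.05 on the low side and 4 on the high side. The median log2 differences of the members were -0.22, -0.20 and -0.11, where those of all genes were 0.04, -0.01 and -0.01. Genes numbered Zfp1 to Zfp599 had 53, 50 and 14 falls of 179 in the same 3 comparisons.

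The Mof count in whole brain was not stable when 1 library was left out. No member fell without Mof_193 or without Mof_197, 1 fell without Cre_16 or Cre_19, 2 fell without Cre_18 and 11 without Mof_200. Each such fit also had 1 library fewer in a group, so a loss of calls need not be due to the library left out. The 3 rises with Kansl2 became 0 without Kansl2_70 and 1 without Cre_16, Cre_18, Cre_19 or Kansl2_68. The 8 rises with Kansl3 became 3 without Cre_16, 2 without Cre_18, 5 without Kansl3_119 and 1 without Kansl3_149. In bulk tissue fewer cells of a type and less RNA per cell cannot be told apart. Microglia markers, 8 genes together, held 0.00386% to 0.00457% of whole-brain reads with Mof, 0.00728% to 0.012% with Kansl2 and 0.00872% to 0.0103% with Kansl3, against 0.00226% to 0.00248% in Cre controls. Erythroid markers, 6 genes, held 0.0331% to 0.085% with Mof, 0.0494% to 0.137% with Kansl2 and 0.0521% to 0.117% with Kansl3, against 0.0265% to 0.0365% in Cre controls. Neural progenitor markers, 8 genes, held 0.0891% to 0.108% with Kansl3 against 0.1195% to 0.1481% in Cre controls. The part of these shares in the members' falls was not tested.

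The members that fell in every whole-brain and every neural comparison were 7: Zfp612, Zfp661, Zfp677, Zfp772, Zfp870, Zfp931 and Zfp953. In neural cells with the Kansl labels, Zfp677 and Zfp953 met the minimum mean through the Cre libraries alone. Their falls there were built in and are a description. Zfp870 had 57.1 ± 2.98 normalized counts in whole brain labelled Kansl2 nKO and 178.9 ± 10.1 in Cre controls (-1.64 ± 0.15, adjusted p = 5.7e-06, n = 3 each, edgeR). Zfp612 had 95.6, 90.0 and 80.8 in labelled Kansl2 nKO against 199, 203.6 and 202 (-1.18 ± 0.14, adjusted p = 4.96e-05), and 127, 131 and 148 with Mof (-0.58 ± 0.13, adjusted p = 0.0251). Its Mof libraries lay between those of the Kansl2 label and the controls without touching either. Zfp677 had 17.2, 8.75 and 19.01 in labelled Kansl2 nKO and 26.9, 43.1 and 44.7 with Mof, against 77.5, 67.9 and 72.5 in Cre controls. Zfp711 was the member that rose with all 3 knockouts in whole brain, with 888, 886 and 964 under Mof against 698, 675 and 706 (0.39 ± 0.09, adjusted p = 0.0254). The Mof calls of all 8 genes in whole brain were lost without Mof_193 or without Mof_197.

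The 3 whole-brain knockouts were also compared with each other. Mof nKO stood above the labelled Kansl2 nKO in 20 of 127 members and below it in 0 (edgeR; 4.65% and 4.0% of all genes; 5 members had an unadjusted p under 0.05 on the low side, and DESeq2 called 0). The count was 8 without Kansl2_63 and 11 without Mof_197. Zfp950 showed the largest such difference, with 265, 235 and 233 normalized counts in Mof nKO (mean 244.3 ± 17.9, SD) against 86.6 to 100 (mean 89.9 ± 8.91) in labelled Kansl2 nKO (1.43 ± 0.18, adjusted p = 0.00111). Zfp677 was 1.31 ± 0.30 higher in Mof nKO (adjusted p = 0.0199). Kansl2_63 had 9.88% mitochondrial reads, the lowest share of its group.

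Against the labelled Kansl3 nKO, Mof nKO was higher in 11 members and lower in 2 (7.43% and 6.05% of all genes). Zfp879 had 20.7, 17.7 and 20.5 normalized counts in Mof nKO against 9.58, 9.20 and 7.36 in labelled Kansl3 nKO (1.14 ± 0.30, adjusted p = 0.0249). Zfp825 had 39.3, 36.4 and 38.2 against 19.2, 19.5 and 13.7 (1.10 ± 0.24, adjusted p = 0.0108). The call for Zfp879 was lost with DESeq2 (1.15) and in 5 of 6 fits without 1 library (1.04 to 1.23), and that for Zfp825 without Kansl3_149 (0.95). The 11 became 7 without Kansl3_117 or Kansl3_119, 3 without Kansl3_149 and 6 without Mof_200, and the 2 lower members, Zfp654 and Zfp948, became 1 or 0 without any of the 6 libraries. Between the labelled Kansl2 and Kansl3 nKO no member passed with edgeR (0.0123% and 0.0246% of all genes), while 3 members on the high side and 26 on the low side had an unadjusted p under 0.05, and DESeq2 called 1 and 3. Without Kansl2_68, 1 member passed as higher and 10 as lower in the labelled Kansl2 nKO.

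Whole brain and neural cells had separate Cre controls. With the Kansl2 label 44 members fell in both, which is 86.3% of the whole-brain falls and 75.9% of the neural falls. With the Kansl3 label 36 fell in both (92.3% and 47.4%), and with Mof 9 did (100% and 20.9%). Both Kansl counts include Zfp677, Zfp879, Zfp947 and Zfp953, for which a difference in neural cells was built in. Across the 127 members, which share libraries and are not independent, log2 differences in whole brain and neural cells had Pearson's r of 0.893 for Kansl2, 0.787 for Kansl3 and 0.822 for Mof. The same shares over all genes tested in both tables were 78.9% and 66.5% for Kansl2, 80.5% and 58.0% for Kansl3 and 81.8% and 22.7% for Mof, with r of 0.755, 0.707 and 0.633. Members that moved in opposite directions were few. Zfp788 with the Kansl3 label had 625, 659 and 643.4 normalized counts in whole brain against 527, 523 and 568 in Cre controls, where it rose (0.27 ± 0.08, adjusted p = 0.026), and 558, 602 and 521 normalized reads in neural cells against 619, 669 and 699.8, where it fell (-0.24 ± 0.08, adjusted p = 0.0228). Zfp948 did likewise (0.34 ± 0.10 in whole brain and -0.46 ± 0.14 in neural cells). Zfp740 rose in neural cells with Mof (0.19 ± 0.06, adjusted p = 0.0214) and fell with the Kansl3 label (-0.35 ± 0.08, adjusted p = 0.00119). The rises were the weaker calls: that of Zfp740 was lost without Cre_184, Cre_188, Mof_643 or Mof_646 (0.15 to 0.18), that of Zfp788 without Cre_16, Cre_18, Kansl3_119 or Kansl3_149 (0.22 to 0.26), and that of Zfp948 without Cre_18 (0.29) or Kansl3_149 (0.26). The falls of Zfp788 and Zfp948 were lost without Cre_188 (-0.20 and -0.40), and that of Zfp788 also without Cre_184 (-0.23).

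**Figure D3:**
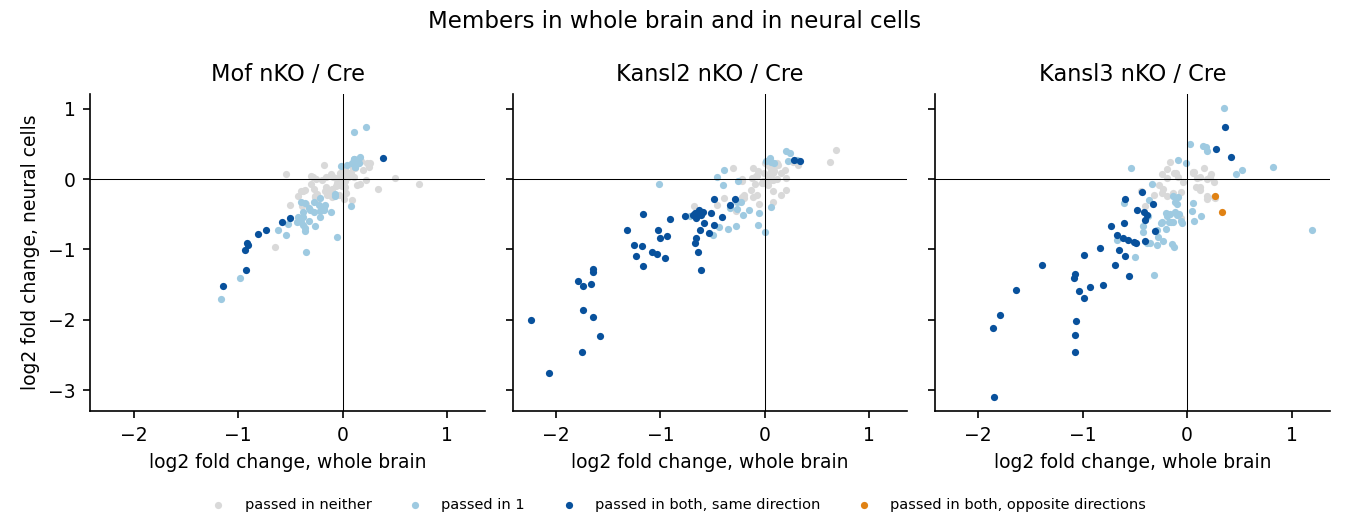
Log2 difference of each of the 127 members in neural cells and in whole brain, 1 panel for each knockout. Points lie along the diagonal direction in all 3 panels, with r of 0.893 in the Kansl2 panel, and the members lowest in both include Zfp677 and Zfp953.

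The members that fell lay unevenly in the genome. Positions come from RefSeq annotation of GRCm38.p6 and were found for 126 members; members with no more than 500 kb between them were joined into groups, a description made after values had been seen. On chromosome 13, between 67038594 and 67683512, lie Zfp712, Zfp759, Zfp953, Zfp748 and Zfp738. All 5 fell in all 3 neural comparisons, with a median log2 difference of -0.61 with Mof, -1.09 with Kansl2 and -1.59 with Kansl3. Zfp759, for example, averaged 17.3 ± 8.10 normalized reads in labelled Kansl3 nKO and 93.8 ± 4.21 in Cre controls (-2.46 ± 0.27, limma, adjusted p = 3.47e-06). On chromosome 17, between 21383707 and 22867309, lie 11 members, among them Zfp677, Zfp820 and Zfp947. In neural cells 9 of the 11 fell with Mof and all 11 with each Kansl label. The counts and medians of these groups include Zfp677, Zfp947 and Zfp953. With the Kansl labels these met the minimum mean through the Cre libraries alone, and Zfp947 did so with Mof as well. Their falls there were built in.

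Other groups varied. On chromosome 17 between 32765496 and 33033381, 4 of 6 members fell with Mof, 3 with Kansl2 and 4 with Kansl3. The counts were 0, 2 and 4 of 5 on chromosome 6 between 47815536 and 48086986, 1, 2 and 5 of 9 on chromosome 7 between 127242996 and 127885996, and 1, 2 and 3 of 4 on chromosome 8 between 71882068 and 71970333. Of 6 members on chromosome 8 between 69209018 and 69774911 (Zfp930, Zfp868, Zfp964, Zfp869, Zfp963 and Zfp866), 0 fell with Mof, 0 with Kansl2 and 1, Zfp930, with Kansl3, while Zfp869 and Zfp866 rose with Mof and with Kansl2 (limma). Zfp869 had 439, 406 and 425 normalized reads with Mof against 368, 332 and 337.8 in Cre controls (0.29 ± 0.08, adjusted p = 0.00782). Over all groups, 55 of 79 members with another member nearby fell with the Kansl3 label (69.6%), and 21 of 47 without one did (44.7%). With Kansl2 the counts were 46 (58.2%) and 12 (25.5%), and with Mof 31 (39.2%) and 11 (23.4%). Members of a group can share reads and regulatory sequence, so they are not independent counts. For Zfp677, Zfp947 and Zfp953, with a member nearby, and Zfp879, without one, a difference was built in with the Kansl labels. For Zfp947 it was built in with Mof as well.

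**Figure D4:**
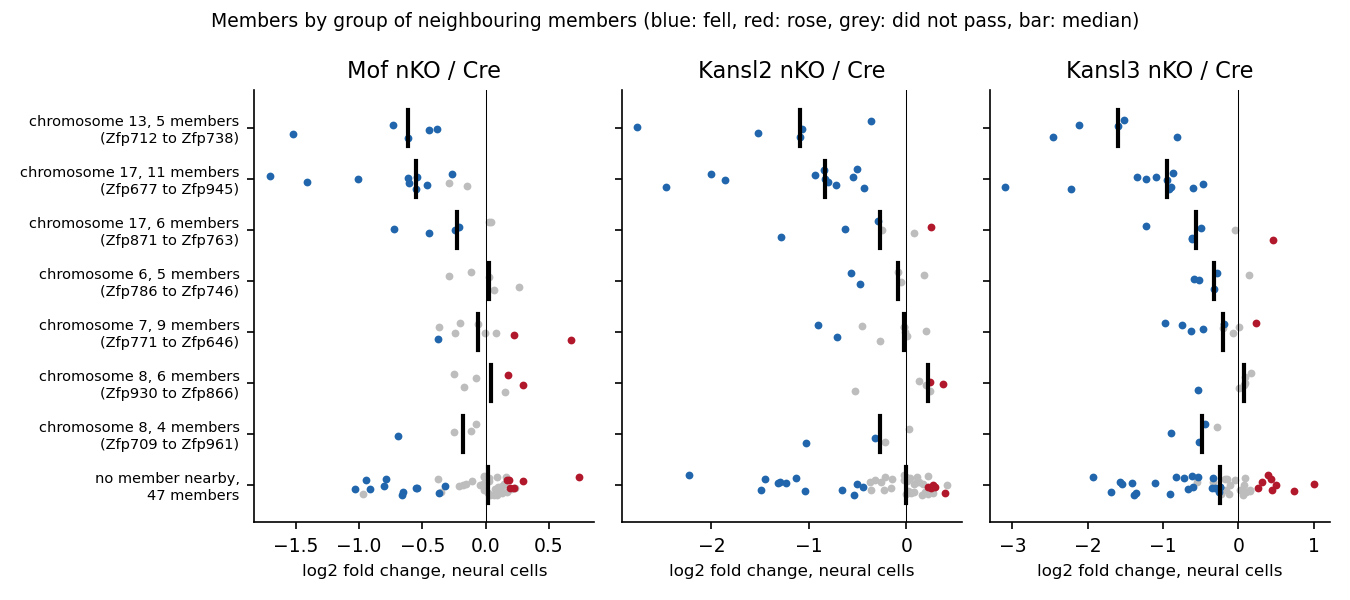
Log2 difference of members in neural cells, for the 7 groups of at least 4 neighbouring members and for members with no other member nearby. All 5 members of the chromosome 13 group lie below 0 in each knockout, and the 6 of the chromosome 8 group that starts at 69209018 lie about 0, apart from Zfp930 with the Kansl labels.

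Promoter windows, from 250 bases before to 50 after the start site in RefSeq GRCm38.p6, were available for 110 members. They were searched on both strands for 7 short motifs, chosen after the windows had been seen, and a match describes letters and shows no binding. The letters ACTACANNTCCC, which contain the core of the pattern known for the factors ZNF143 and THAP11, occurred in 595 of all 32851 windows (1.81%), in 14 of the 110 members (12.7%) and in 35 of 144 windows of Zfp1 to Zfp599 (24.3%). All windows include those of genes not tested here, whereas members were picked for their reads in neural cells, so the 2 shares are not alike. All 5 genes of the chromosome 13 group held these letters. They are shown with 10 bases on each side, with the motif in capitals, read 5′ to 3′ on the strand that carries it. Zfp661, which fell everywhere in brain and neural cells, is shown with them. So is Zfp879, with a log2 difference of -1.93 ± 0.38 in neural cells labelled Kansl3 nKO, where it met the minimum mean through the Cre libraries alone. The last is Zfp691, the 1 member with these letters that did not pass there (-0.34 ± 0.19).
Zfp712 (chr13:67061205-67061236, + strand): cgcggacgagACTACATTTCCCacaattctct
Zfp738 (chr13:67683547-67683578, + strand): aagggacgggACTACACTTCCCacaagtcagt
Zfp748 (chr13:67553157-67553188, + strand): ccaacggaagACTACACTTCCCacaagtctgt
Zfp759 (chr13:67128166-67128197, - strand): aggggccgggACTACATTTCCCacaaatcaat
Zfp953 (chr13:67360626-67360657, + strand): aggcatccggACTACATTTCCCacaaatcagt
Zfp661 (chr2:127584736-127584767, + strand): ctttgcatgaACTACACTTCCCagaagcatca
Zfp879 (chr11:50841591-50841622, + strand): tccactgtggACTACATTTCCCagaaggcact
Zfp691 (chr4:119174353-119174384, - strand): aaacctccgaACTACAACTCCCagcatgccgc

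Of the 14 members with these letters 13 fell in neural cells labelled Kansl3 nKO (median -1.15), and of 96 without them 58 fell (median -0.46). Outside the chromosome 13 group the counts were 8 of 9 with the letters and 58 of 96 without. With the Kansl labels a difference was built in for Zfp879 and Zfp953, which hold the letters, and for Zfp677 and Zfp947, which do not. These met the minimum mean through the Cre libraries alone. With Kansl2 12 of 14 fell against 42 of 96, and with Mof 9 of 14 against 29 of 96. Among all genes tested under the Kansl3 label, 242 of 471 with the letters fell (51.4%) and 2941 of 9547 without them (30.8%), counts that include the zinc finger genes. These 471 are of 10018 tested genes with a window, a larger share than the share over all windows. For Mof and Kansl2 the like counts over all genes are not given here. Under the Kansl3 label Zfp1 to Zfp599 had 27 falls of 35 with the letters and 58 of 109 without.

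The letters CACGTGAC, an E-box form, occurred in 738 of all windows (2.25%), which include genes not tested here. They were in 10 member windows, 7 of them in the chromosome 17 group. Of the 10, 8 fell with Mof, 9 with Kansl2 and 9 with Kansl3 in neural cells, and the 1 that rose with Kansl3 was Zfp871 (0.46 ± 0.08, limma, adjusted p = 0.000251). Falls among all tested genes with CACGTGAC are not given here, so these counts do not set the members apart. Outside the chromosome 17 group only 3 members held these letters, and 2 of the 3 fell with Kansl3. Zfp947, among the 10, met the minimum mean through the Cre libraries alone with each knockout, so its falls were built in. Zfp942 and Zfp943 lie head to head and share 1 such stretch read on opposite strands, as do Zfp944 and Zfp758. The windows of Zfp758 and Zfp943 share 248 identical bases and those of Zfp942 and Zfp944 share 207, so these 4 are near-identical copies at their start sites and reads may be split between them. The stretches below show both head-to-head genes, Zfp820 and Zfp947, described above, and the riser.
Zfp820 (chr17:21845861-21845888, - strand): ttaggggaacCACGTGACcataaccagc
Zfp947 (chr17:22166031-22166058, - strand): tttgggaaacCACGTGACcataaccacg
Zfp942 (chr17:21962501-21962528, - strand): ttagcgctgtCACGTGACcggaaccgtg
Zfp943 (chr17:21962503-21962530, + strand): cggttccggtCACGTGACagcgctaacg
Zfp871 (chr17:32788359-32788386, - strand): gggaggcgtgCACGTGACtcactggcca

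The other 5 motifs gave these counts of falls with Mof, Kansl2 and Kansl3 in neural cells. ATGGCGG (4.05% of all windows) was in 15 members, of which 3, 3 and 8 fell. CCGGAAG (8.86%) was in 18, of which 7, 10 and 15 fell. CCAAT (37.41%) was in 63, of which 20, 32 and 38 fell. GGGCGG (35.66%) was in 57, of which 19, 24 and 34 fell, and TGACGTCA (1.79%) was in 2, of which 1 fell in each. Among all 127 members 43, 58 and 76 fell, but only 110 of these had a window that could hold a match. Falls among all tested genes with each of these 5 motifs are not given here, so the counts do not set the members apart. The first 2 patterns were joined after their counts had been seen, so the joint count is a description. Of the 23 members with either 21 fell with the Kansl3 label in neural cells, 20 with Kansl2 and 16 with Mof. Of 87 members with neither, 50, 34 and 22 fell. The 23 include Zfp879, Zfp947 and Zfp953, and the 87 include Zfp677, whose falls with the Kansl labels were built in (that of Zfp947 with Mof as well). Zfp953 and Zfp869 are shown at full window length, and both windows hold 8 CpG dinucleotides. Zfp953 fell in all 3 neural comparisons, with a difference built in under the Kansl labels, and Zfp869 rose with Mof and Kansl2. Each window is read 5′ to 3′ along the gene, with capitals marking the reverse complement of ACTACANNTCCC in Zfp953 and of ATGGCGG in Zfp869, 1 of the 7 motifs searched. Other motifs of the 7 are present but not marked, TGACGTCA in Zfp953 and CCAAT in Zfp869.
Zfp953 (chr13:67360523-67360822, - strand): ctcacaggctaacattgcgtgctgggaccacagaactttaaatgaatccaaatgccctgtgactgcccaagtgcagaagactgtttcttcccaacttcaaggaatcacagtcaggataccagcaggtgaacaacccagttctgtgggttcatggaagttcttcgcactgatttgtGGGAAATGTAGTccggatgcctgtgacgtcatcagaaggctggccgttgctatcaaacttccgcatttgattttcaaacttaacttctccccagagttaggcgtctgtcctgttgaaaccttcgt
Zfp869 (chr8:69716853-69717152, - strand): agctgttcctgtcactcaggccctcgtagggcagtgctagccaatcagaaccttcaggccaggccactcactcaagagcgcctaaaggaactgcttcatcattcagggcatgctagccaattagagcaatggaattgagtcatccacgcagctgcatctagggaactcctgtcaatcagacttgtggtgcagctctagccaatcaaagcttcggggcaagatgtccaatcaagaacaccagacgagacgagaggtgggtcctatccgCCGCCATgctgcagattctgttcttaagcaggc

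In neural cells CpG content varied with the falls too. With the Kansl3 label in neural cells 32 of 41 members with at most 10 CpG in the window fell, 21 of 31 with 11 to 20, and 18 of 38 with more than 20. Among all genes tested the shares that fell in these 3 bins were 28.7%, 40.7% and 27.2%, with no such order. Spearman's rho across the 110 members between CpG count and the log2 difference was 0.40 for Kansl3, 0.36 for Kansl2 and 0.36 for Mof, against 0.13, 0.17 and 0.16 across all genes. In whole brain rho was weaker, at 0.12, 0.23 and 0.17 across members and -0.01, 0.045 and 0.07 across all genes. With the Kansl3 label there, 34.1%, 32.3% and 28.9% of members fell in the 3 bins. The neural values include Zfp677, Zfp879, Zfp947 and Zfp953, whose differences with the Kansl labels were built in. Windows of 1 gene group resemble each other, so the points are not independent.

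**Figure D5:**
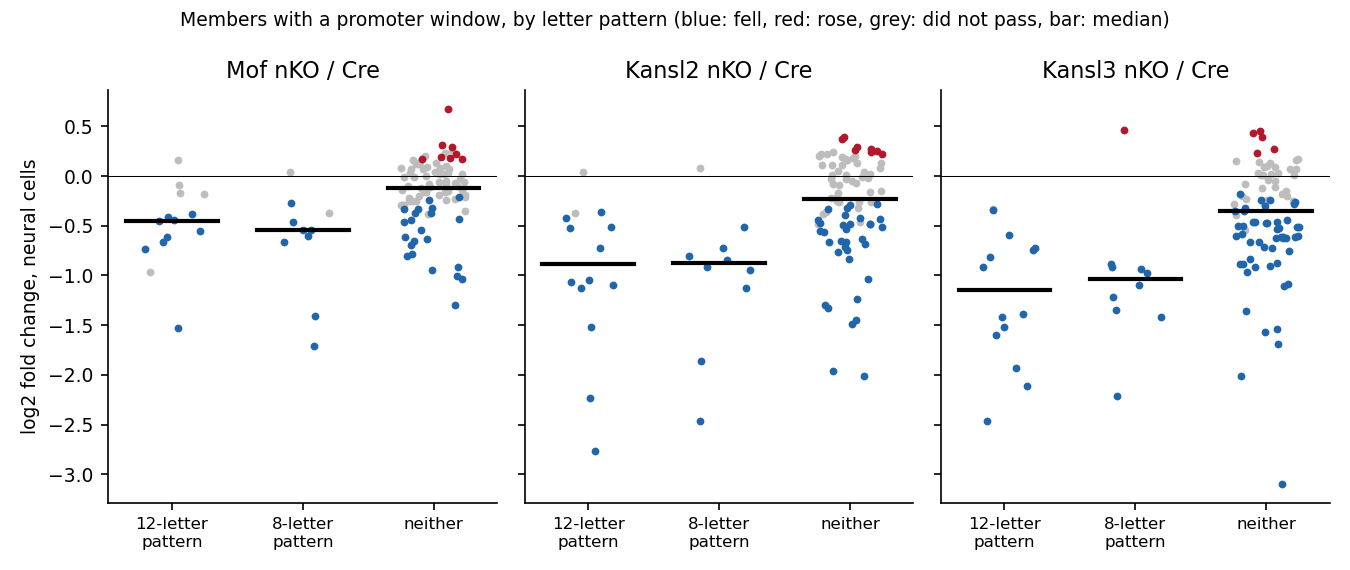
Log2 difference in neural cells of members grouped by the letters in their promoter window: those with the 12-letter pattern, those with the 8-letter pattern and those with neither (Zfp933 is in both of the first groups). Of the 14 members in the first group 13 fell with the Kansl3 label, and 50 of the 87 with neither did.

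Some members have a known role. Zfp932, which in mouse embryonic stem cells silences endogenous retroviruses, had 200, 232 and 227 normalized reads in neural cells labelled Kansl3 nKO against 334, 340 and 369.7 in Cre controls (-0.66 ± 0.10, adjusted p = 5.36e-05). In whole brain it averaged 155.0 ± 10.7 in labelled Kansl2 nKO and 349.3 ± 60.9 in Cre controls (n = 3 each, edgeR, -1.17 ± 0.17, adjusted p = 0.00023). Zfp809, which silences retroviruses in the same cells, passed in none of the 3 neural comparisons (-0.23 ± 0.25, -0.49 ± 0.24 and -0.20 ± 0.21 with Mof, Kansl2 and Kansl3) and fell in whole brain labelled Kansl2 nKO (-0.65 ± 0.22, adjusted p = 0.0424), a call lost with DESeq2 (-0.64) and without any library but Cre_18 (-0.68 to -0.53). Zfp830, linked to genome stability in mouse, fell in 4 of the 6 comparisons of brain and neural cells, all of the Kansl labels. Zfp827, whose human counterpart recruits the NuRD deacetylase complex to telomeres, rose in the same 4. Zfp638, known for silencing unintegrated retroviral DNA in human cells, rose with Mof (0.17 ± 0.06) and Kansl2 (0.22 ± 0.08) in neural cells, calls lost in 5 of 6 fits without 1 library each (0.14 to 0.24). Zfp655 and Zfp706 passed in none of the 6.

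Among 24 genes of the silencing machinery that works with KRAB zinc finger proteins, 12 rose and 3 fell with Mof in neural cells, where 19.4% of all genes rose and 17.1% fell. With Kansl2 8 rose and 1 fell (20.1% and 22.1% of all genes), and with Kansl3 10 rose and 1 fell (26.4% and 28.8%). Trim28, the co-repressor, averaged 8172 normalized reads with Mof and 5613 in Cre controls (0.54 ± 0.06, adjusted p = 2.47e-06), rose with Kansl2 (0.36 ± 0.07) and did not pass with Kansl3 (0.05 ± 0.08). Cbx5, an HP1 protein, rose in all 3 (0.29 ± 0.06, 0.42 ± 0.06 and 0.43 ± 0.07), as did Rbbp7 of the NuRD complex. Setdb1, the methyltransferase, fell with the Kansl3 label (-0.31 ± 0.07, adjusted p = 0.00156), and the DNA methyltransferase Dnmt3b fell with Mof and Kansl2. In whole brain 1 of the 24 rose over the 3 comparisons, and 3 falls were counted: Dnmt3b with Kansl2, and Chd3 and Dnmt1 with Kansl3. Of all genes 1.93% rose and 4.04% fell there with Mof, 10.4% and 16.2% with Kansl2, and 15.2% and 18.8% with Kansl3.

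In sorted pericytes few members passed, and few genes passed at all. With Mof 0 of 118 members tested rose or fell with limma (0.0% of all 14112 genes in either direction), with 1 member on the high side and 12 on the low side at an unadjusted p under 0.05, while DESeq2 called 0 and 2. Pericyte markers, 8 genes, held 0.559% to 0.783% of reads in Mof nKO pericytes against 1.03% to 1.33% in Cre controls. Neuron markers, 8 genes, held 0.0445% to 0.068% against 0.0263% to 0.0431%. The part of these shares was not tested. With the Kansl3 label 0 of 123 passed (1.88% of all genes rose and 1.24% fell), with 4 and 11 at an unadjusted p under 0.05, and DESeq2 called 2 and 2. Without Mof_586 the Mof count was 2 falls, and without Kansl3_333 or Kansl3_335 the Kansl3 count was 2 or 1. With the Kansl2 label 2 members fell and 0 rose (limma; 1.26% and 0.951% of all genes; 6 on the high side at an unadjusted p under 0.05, and DESeq2 called 6 falls and 0 rises). The pericyte libraries could show little: in simulated counts for Mof, 26.7% of genes changed 2-fold were recovered, and 98.6% in the neural comparison. The changed genes were drawn only from those with more reads. Recovery was therefore not measured for members with few reads, of which pericytes had many.

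The 2 were Zfp612 and Zfp811. Zfp612 had 1.66, 4.09 and 10.1 normalized reads in labelled Kansl2 nKO against 53.1, 22.1, 76.3 and 70.5 in Cre controls (-3.27 ± 0.69), where it met the minimum mean of 10 through the Cre libraries alone, so a difference was built in. Zfp811 had 209, 145 and 196 against 259, 333.1, 449 and 516 (-1.05 ± 0.25, adjusted p = 0.0393). The groups did not overlap for either gene. The 2 falls became 0 without Cre_141 or Cre_142 and 1 without Cre_134, Cre_139 or Kansl2_338. Neural progenitor markers, 8 genes together, held 0.151% to 0.191% of reads in labelled Kansl2 nKO pericytes against 0.292% to 0.39% in Cre controls, and their part was not tested. Pericyte markers held 1.02% to 1.10% and 1.03% to 1.33% in the same groups.

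Cultured pericytes treated with fatty acids showed changes in both directions. Of 123 members tested 39 rose and 45 fell with edgeR, where 32.3% of all 15625 genes rose and 34.3% fell, shares close to those of the members (31.7% and 36.6%). Zfp655, whose human counterpart binds the signalling protein VAV1, had 9359, 10310 and 9632 normalized counts with fatty acids against 3886, 4182 and 4148 with vehicle (1.29 ± 0.07, adjusted p = 7.32e-06). Zfp644, a partner of the G9a methyltransferase in human cells, had 87.6, 78.5 and 114 against 30.0, 32.5 and 42.2 (1.44 ± 0.23, adjusted p = 0.000974). Zfp784 had 35.7, 35.6 and 38.9 against 143, 155 and 148.7 (-1.99 ± 0.15, adjusted p = 2.7e-05), and Zfp879 and Zfp866 fell by as much (-2.01 ± 0.21 and -2.01 ± 0.20). The groups of each of these genes were far apart.

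Members that fell together in neural cells went different ways in culture. Of the chromosome 13 group Zfp759 fell (-0.94 ± 0.13, edgeR, adjusted p = 0.000521), Zfp712 rose (1.01 ± 0.10, adjusted p = 9.17e-05), Zfp748 rose (0.68 ± 0.10) and Zfp738 stood at 0.07 ± 0.10, while Zfp953 had 0 counts in all 6 libraries. Zfp947 (-1.85 ± 0.14) and Zfp820 (-1.40 ± 0.10) fell, and Zfp677 stood at -0.05 ± 0.11. The cells are labelled pericytes, but 8 pericyte markers held 0.00321% to 0.00374% of reads with fatty acids and 0.0207% to 0.022% with vehicle, far under the 0.559% to 1.36% of sorted pericytes. Kat8, Kansl2 and Kansl3 all rose with fatty acids (0.52 ± 0.07, 1.15 ± 0.08 and 0.66 ± 0.06). Their part in the members' changes was not tested.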

How the data were processed

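RNA sequencing libraries of whole brain, sorted neural cells, sorted pericytes and cultured pericytes were used; libraries of endothelial cells and microglia and chromatin immunoprecipitation samples were not used here. The submitters' processing notes name mm10 as the build, STAR, featureCounts and DESeq2 (their versions are not given here). Per the labels' protocols, whole-brain, neural and culture libraries were made with TruSeq while sorted pericytes went through SMART-Seq v4 and then Nextera XT. The deposited tables of whole brain and culture hold raw counts per gene. The deposited tables of sorted cells hold a signal, which the authors obtained from counts and a per-library size factor, table by table; whole reads were recovered from 100% of values in 40 columns (tolerance 0.01). The authors' deposited tables also hold log2 fold changes and p-values, which were not the source of any value printed here.

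For raw counts edgeR 4.0.16 was used (quasi-likelihood test after filterByExpr and TMM scaling); the 12 whole-brain libraries shared a fit, and a printed SE is the log2 difference divided by the square root of F. For signal values limma 3.58.1 with its trend option was used in R 4.3.3, on log2(value + 1), 1 fit per table, leaving out genes whose mean was under 10. P-values were adjusted by Benjamini-Hochberg over all genes of a fit. This scale understates the change of low genes. The members, gene lists and comparisons were chosen with earlier results of these data known. Named members were the largest rises and falls that passed without overlap (5 each in brain and neural cells, 3 in pericytes), those that passed in 1 direction throughout brain and neural cells, those that moved in opposite directions, those beside the threshold, and some with a role in the literature. The whole-brain and neural knockouts were not paired. Neural knockouts were not compared with each other, since their tables were scaled separately. The fits were tested on simulated data. DESeq2 1.42.0, no filter, other pseudocounts, recovered reads and leaving out each library were the alternatives. Promoter windows and positions are those of RefSeq GRCm38.p6; read sharing between near-identical copies was not examined.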

Additional observations from a re-analysis of the deposited data

Results flagged for a closer look

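Among labelled Kansl3 nKO pericyte libraries, 1 library stood apart from the other 3 for Zfp664, with a gap of 0.857 of the group's range, and for Zfp827, with 0.838. Chance marks about 1 in 20 groups in this way, and 74 groups were looked at.

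In whole brain, Mof nKO and the labelled Kansl2 nKO differed from each other, by edgeR's test of the difference itself, in 8 named members, with Mof higher in each: Zfp612 by a log2 difference of 0.595, Zfp661 by 0.582, Zfp677 by 1.311, Zfp740 by 0.296, Zfp870 by 0.913, Zfp931 by 0.835, Zfp932 by 1.06 and Zfp950 by 1.433. Against the labelled Kansl3 nKO the difference was 0.367 for Zfp740, 1.097 for Zfp825, 0.66 for Zfp870 and 1.141 for Zfp879, with Mof higher, and -0.425 for Zfp654 and -0.325 for Zfp948, with Mof lower. These tests share the whole-brain libraries, and Kansl2 63 had a low mitochondrial share of 9.88%, whose part was not tested.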

How the results depend on the processing

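No named member's call was reversed in direction under any alternative, though log2 differences near 0 could change sign. With 1 library left out, 1766 of 1978 values kept their side of the threshold, 198 lost the call and 14 gained one. Under the other alternatives 1082 of 1121 kept it, 31 lost it and 8 gained one. The counts moved as follows, and the cause was not tested. With no filter on low counts, in whole brain Mof had 2 rises (main 1), Mof against Kansl2 had 1 fall (main 0), and Kansl2 against Kansl3 had 1 rise and 9 falls (main 0 and 0), while pericytes labelled Kansl2 nKO had 1 fall (main 2). DESeq2 gave 1 fall for Mof against Kansl3 (main 2), 1 rise and 3 falls for Kansl2 against Kansl3, 2 falls in Mof pericytes, 6 falls in Kansl2 pericytes, and 2 rises and 2 falls in Kansl3 pericytes.

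With 1 library left out, whole-brain rises and falls ranged over 0 to 2 and 0 to 11 for Mof, 0 to 2 and 37 to 47 for Kansl2, and 1 to 8 and 29 to 35 for Kansl3. For Mof against Kansl2 rises ranged over 8 to 20 and falls were 0, for Mof against Kansl3 they ranged over 3 to 9 and 0 to 1, and for Kansl2 against Kansl3 over 0 to 1 and 0 to 10. In neural cells the ranges were 5 to 11 and 29 to 41 for Mof, 4 to 13 and 47 to 59 for Kansl2, and 7 to 12 and 70 to 77 for Kansl3. In pericytes rises were 0 and falls 0 to 2 for Mof, 0 to 3 for Kansl2 and 0 to 2 for Kansl3. In culture rises ranged over 32 to 51 and falls over 39 to 49.

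The culture replicate numbers were not treated as pairs. Deviations of same-numbered libraries correlated at 0.223, 0.148 and 0.0477, which cannot settle whether the samples were paired. A replicate block gave 37 rises and 48 falls there, and -0.006 for the median of the members. No paired analysis was possible in the other tables because their groups share no replicate numbers. The smallest library, of sorted pericytes, held 1572515 reads.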
